A study of Mus musculus with 2 samples.

Results

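Intermediate neutrophils are described here, defined by RNA counts as cells rich in Retnlg and Mmp8 that hold little Ltf and little Il1b. They numbered 1914 of the 17459 cells that passed quality filters in a pair of mouse bone marrow libraries, 1263 of 10665 in the femur library and 651 of 6794 in the ectopic library. A cell was taken with at least 50 unique molecular identifiers (UMIs, which count single RNA molecules) of Retnlg, at least 5 of Mmp8, fewer than 50 of Ltf and fewer than 5 of Il1b. Those 4 genes chose the cells, so their levels are given as a description.

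The study induced a marrow-bearing bone under the skin of mice by implanting bone morphogenetic protein 2 (BMP-2, 8 µg) with 40 mg of β-tricalcium phosphate, and set its marrow, taken after 4 weeks, beside femur marrow by 10x Genomics 3′ single-cell RNA sequencing. Each library held hematopoietic cells of wild-type C57BL6J mice and CXCL12-abundant reticular (CAR) stromal cells of Cxcl12-GFP reporter mice, mixed before loading. The stromal cells had been depleted of hematopoietic and endothelial cells, and dead cells had been gated out. There was 1 library per tissue and the number of mice behind each is not given in the sources used here, so no difference was tested, none had a replicate check, and every interval is an exact 95% interval for counting error only.

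Neutrophils mature in marrow in steps that can be read from their granule genes. Precursors first make azurophil granules with myeloperoxidase and serine proteases, then specific granules with lactoferrin (Ltf) and cathelicidin, and later gelatinase granules that carry matrix metalloproteinases. Chemokine and formyl peptide receptors, with which a neutrophil senses where to go, are gained late, and Il1b transcripts are a late feature of the series.

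The femur matrix held 123009924 UMIs in 11148 barcodes and the ectopic matrix 86018367 UMIs in 7214. Intermediate neutrophils had a median of 7903 UMIs and 2070 genes per cell in the femur library (lowest 1973 and highest 95888 UMIs), and of 8767 UMIs and 2234 genes in the ectopic library (3147 to 69945 UMIs). Of all barcodes 26 occurred in both libraries, and 0 of them were intermediate neutrophils. The median Retnlg count per cell was 204 UMIs in femur and 225 in ectopic cells, and the median Mmp8 count 28 and 32. The median Mmp9 count was 19 and 21, and that of Fpr1 3 and 4, so 2 marker genes that the rule did not use were present too. Neutrophils on either side of the rule served for comparison. The immature gate (at least 50 UMIs of Ltf and fewer than 5 of Il1b) took 2188 femur and 1324 ectopic cells, and the mature gate (at least 5 of Il1b, at least 2 of Cxcr2 and fewer than 50 of Ltf) took 1309 and 587.

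Retnlg encodes resistin-like gamma, a small secreted protein of myeloid cells, and Mmp8 encodes neutrophil collagenase. Their promoters are shown because these genes define the cells. The sequences are from RefSeq (GRCm38.p6) and run from 250 bases before to 50 bases after the start of the gene, chr16:48872358-48872657 on the plus strand for Retnlg and chr9:7558179-7558478 on the plus strand for Mmp8. Capitals mark the letters TTGCNNAA (the C/EBP type) and GAGGAA (the PU.1 type), searched on both strands.
Retnlg: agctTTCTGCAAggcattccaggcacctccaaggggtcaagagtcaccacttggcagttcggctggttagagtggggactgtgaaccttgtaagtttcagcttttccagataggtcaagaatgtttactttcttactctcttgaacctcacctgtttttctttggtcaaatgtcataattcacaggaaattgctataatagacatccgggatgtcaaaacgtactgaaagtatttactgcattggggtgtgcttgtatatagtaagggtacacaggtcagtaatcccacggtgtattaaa
Mmp8: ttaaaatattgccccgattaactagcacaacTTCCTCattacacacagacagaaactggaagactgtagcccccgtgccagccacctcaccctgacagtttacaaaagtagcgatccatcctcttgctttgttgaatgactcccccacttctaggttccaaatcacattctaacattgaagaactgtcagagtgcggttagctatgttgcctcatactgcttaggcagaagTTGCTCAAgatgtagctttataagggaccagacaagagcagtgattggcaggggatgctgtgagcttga
Retnlg had 1 match of the C/EBP type, on the minus strand, and 0 of the PU.1 type. Mmp8 had 1 of the C/EBP type on the plus strand, 19 bases before the start, and 1 of the PU.1 type on the minus strand. No 2 matches overlapped. Letters of the C/EBP type were found in 10.8% and those of the PU.1 type in 28.3% of the 32851 promoters in the table, so a match is a description of the letters and not a binding site. In the same windows Fpr1 had 0 matches of either type and Mmp25 had 1 of the PU.1 type. Mmp9 is named only.

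The rule cut into a continuous series of cells. Femur cells with 3 or 4 UMIs of Il1b, just inside the rule, held 25679 CPM (counts of a gene over all counts of the same cells, scaled to 1000000) of Retnlg and 2673 CPM of Mmp8, and cells with 5 or 6, just outside it, held 24696 and 2777 CPM. On the other edge, femur cells with 40 to 49 UMIs of Ltf held 9361 CPM of Camp and cells with 50 to 59 held 9661. At the lower edge of Retnlg, femur cells with 50 to 59 UMIs numbered 10 and those with 40 to 49 numbered 11. Of the cells with enough Retnlg and Mmp8, 689 femur and 428 ectopic cells stayed out for Ltf alone, 565 and 275 for Il1b alone, and 52 and 13 for both.

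Intermediate neutrophils made up 11.8% of femur cells (11.2 to 12.5) and 9.58% of ectopic cells (8.89 to 10.3), a ratio of 0.809 ectopic over femur (0.735 to 0.890). Among the cells of the 3 gates alone they were 26.5% (25.3 to 27.8) and 25.4% (23.7 to 27.1), a ratio of 0.958 (0.870 to 1.05) whose counting interval spans equal shares. The immature gate had a ratio of 0.950 (0.887 to 1.02) among all cells and the mature gate one of 0.704 (0.638 to 0.777). The shares of all cells depend on how the fractions were mixed, which the shares within the gates do not.

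**Figure D1:**
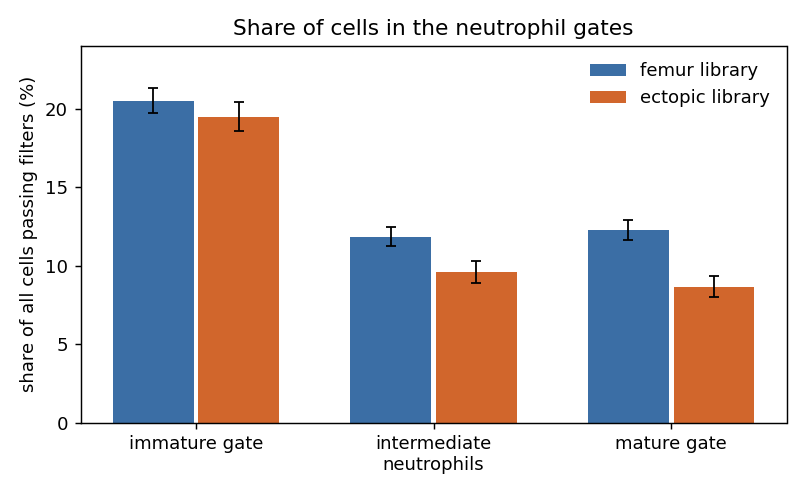
Share of all filtered cells in the immature, intermediate and mature neutrophil gates (y axis, percent) in the femur and ectopic libraries; bars are 1 library each and the error bars are exact 95% counting intervals. Intermediate neutrophils stood at 11.8% and 9.58%, between an immature gate near equal in both libraries and a mature gate at 12.3% and 8.64%.

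Most genes of the gelatinase granule and both formyl peptide receptors measured were highest in intermediate neutrophils. Retnlg stood at 3190, 23990 and 13661 CPM in the immature, intermediate and mature gates of the femur library and at 3185, 24823 and 14320 CPM in the ectopic library. Mmp8 stood at 1546, 3392 and 1268 CPM in femur and 1667, 3581 and 1331 CPM in ectopic cells. Both genes chose the cells, so this order was set in part by the rule. Mmp9, the gelatinase that gives the granule its name, followed the same order with 1092, 2321 and 1500 CPM in femur and 1095, 2386 and 1581 CPM in ectopic cells. Mmp25, a membrane-bound metalloproteinase, had 209, 327 and 127 CPM in femur and 207, 320 and 142 CPM in ectopic cells. Of the 8 gelatinase granule genes that no gate used (Mmp8 set aside), 5 were highest in intermediate neutrophils in both libraries, Mmp9, Mmp25, Adam8, Cfp (properdin of the complement system) and the integrin chain Itgb2. Itgam and Qsox1 were highest in the immature gate, and the order of Slc11a1 differed between the libraries. Summed over these 8 genes the level was 2690 CPM in the immature, 4458 in the intermediate and 2994 in the mature gate of femur, and 2728, 4550 and 3197 CPM in the ectopic gates. For comparison, 9.67% of all 6818 genes with at least 50 UMIs in each library were highest in intermediate neutrophils in both libraries by any margin. All 3 gates were cut from the same cells by genes of maturation, so these orders are described and not tested.

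Most specific granule genes were highest in the immature gate. Camp, the antimicrobial peptide cathelicidin, had 32232, 2702 and 729 CPM over the femur gates and 36505, 3024 and 418 CPM over the ectopic gates. Ngp, a neutrophil granule protein, had 27512, 4813 and 785 CPM in femur and 30812, 5011 and 774 CPM in ectopic cells. Lcn2, which binds bacterial siderophores, had 13027, 5658 and 2159 CPM in femur and 12248, 4669 and 1931 CPM in ectopic cells. Ltf formed the gates and is itself a specific granule gene. The order of genes that change with Ltf may thus be set in part by the gates, and was not tested. Of 10 measured specific granule genes other than Ltf, 7 stood lower at each later gate in both libraries, against 9.37% of all genes. Cd177, a surface protein stored in these granules, went the same way, at 1224, 734 and 202 CPM in the femur gates. The catalytic NADPH oxidase subunit Cybb also stood lower at each gate, at 2244, 735 and 316 CPM in femur and 2450, 871 and 362 CPM in ectopic cells, as did 5 of 7 oxidase genes.

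Receptors that guide migration showed 2 patterns. The formyl peptide receptor Fpr1 was highest in intermediate neutrophils, with 169, 587 and 344 CPM over the femur gates and 139, 546 and 314 CPM over the ectopic gates. Its relative Fpr2 stood at 252, 325 and 220 CPM in femur and 242, 348 and 263 CPM in ectopic cells. Cxcr2, the chemokine receptor that draws neutrophils to blood, had 140, 631 and 869 CPM in femur and 128, 690 and 1004 CPM in ectopic cells, where the mature value was set in part by the gate, which required Cxcr2. The complement receptor C5ar1 (213, 660 and 885 CPM in femur) and the chemokine receptor Ccr1 (80.3, 336 and 447 CPM in femur) were highest in the mature gate, so that of the 8 receptors other than Cxcr2 4 stood higher at each later gate and 3 were highest in the middle. Ltb4r1, the receptor of leukotriene B4, was the exception and stood highest in the immature gate, at 345, 123 and 64.9 CPM in femur. Cxcr4, which holds cells in marrow through CXCL12, was nearly level between intermediate and mature cells (109, 152 and 146 CPM in femur, 114, 187 and 177 CPM in ectopic cells).

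**Figure D2:**
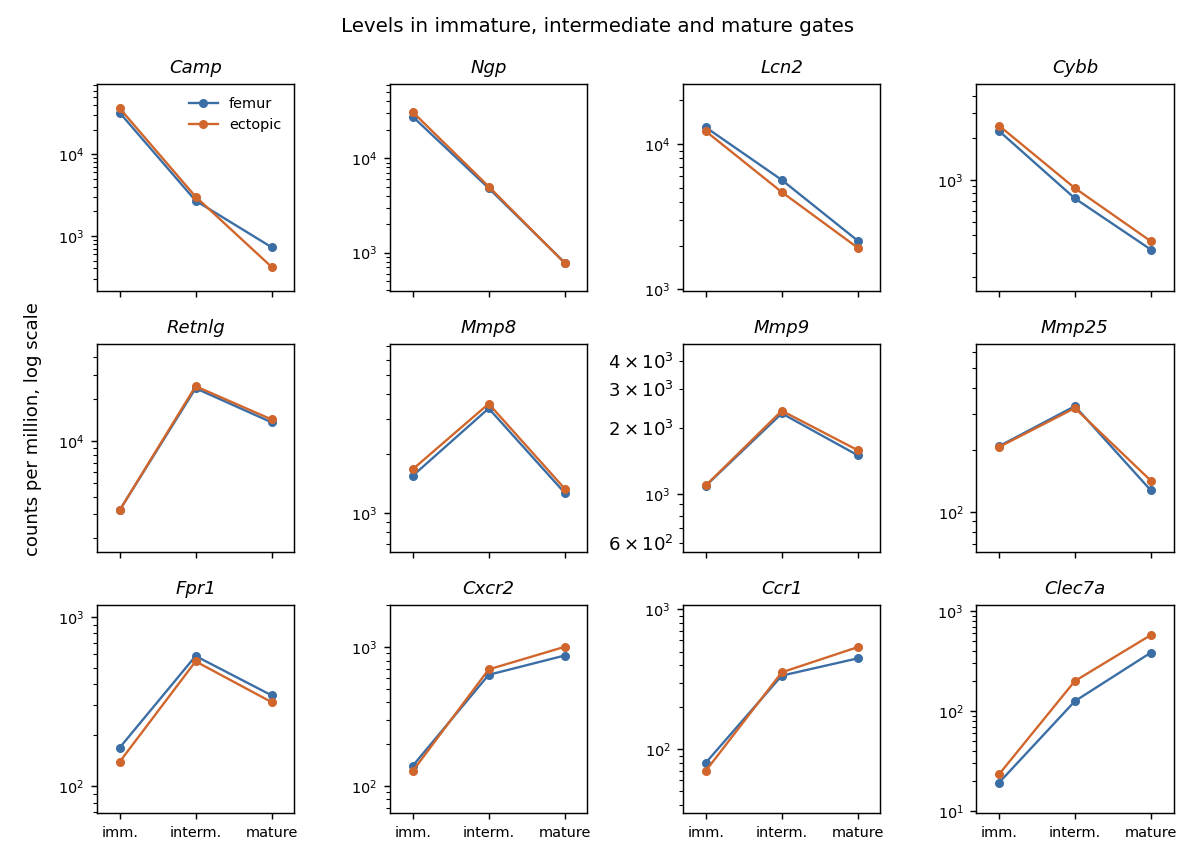
Level of 12 genes (y axis, CPM on a log scale) in the immature, intermediate and mature gates of the femur and ectopic libraries; each point is the summed UMIs of 1 gate in 1 library. Camp, Ngp, Lcn2 and Cybb descend, Retnlg, Mmp8, Mmp9, Mmp25 and Fpr1 are highest in the middle, and Cxcr2, Ccr1 and Clec7a climb, in the same order in both libraries.

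Genes of inflammatory sensing were already present and went higher in the mature gate. Of 19 pattern and cytokine receptors 15 stood higher at each later gate in both libraries, of 15 NF-kB and inflammatory genes without Il1b 13, of 16 immediate early genes 15, and of 21 interferon-stimulated genes 16, where 30.3% of all genes did so. The mature gate required Il1b, a gene of the NF-kB list, and intermediate neutrophils held fewer than 5 UMIs of it. The order of genes that change with Il1b may thus be set in part by the gates, and was not tested. Cebpb, a transcription factor of late neutrophils, had 188, 818 and 1260 CPM in femur and 171, 679 and 1075 CPM in ectopic cells. Nfkbia, the inhibitor that NF-kB induces, had 361, 1833 and 3787 CPM in femur and 250, 1179 and 2213 CPM in ectopic cells. Jaml, an adhesion molecule, was at 11.6, 232 and 558 CPM in femur and 7.64, 260 and 546 CPM in ectopic cells. Ribosomal protein genes behaved otherwise, with 69 of 82 lowest in intermediate neutrophils in both libraries, against 27.5% of all genes. In cells thinned to 2000 UMIs each, Mki67 was seen in 2.14% (1.41 to 3.10) of femur and 1.38% (0.634 to 2.61) of ectopic intermediate neutrophils, and in 19.9% and 19.3% of the immature gate. Top2a was seen in 3.96% (2.95 to 5.19) of femur and 0.614% (0.168 to 1.57) of ectopic intermediate neutrophils, and in 19.47% and 16.01% of the immature gate. The summed level of the cell cycle list was 5941, 2106 and 2686 CPM over the femur gates and 5528, 1823 and 2424 CPM over the ectopic gates, of which Hmgb2, a chromatin protein, made 1344 and 1254 CPM in intermediate neutrophils.

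Few genes stood out by size in intermediate neutrophils. Of 6818 genes, 50 (0.733%) had at least 1.5 times the CPM of both neighbouring gates in both libraries, and 149 of 6473 (2.3%) were as far below both. Prok2, a secreted prokineticin, had 9.57, 43.6 and 16.8 CPM over the femur gates and 6.22, 40.4 and 11.9 CPM over the ectopic gates. Gpr27, an orphan receptor, had 33.2, 84.4 and 18.0 CPM in femur and 31.5, 81.8 and 21.4 CPM in ectopic cells. Fosl1, a subunit of the AP-1 transcription factor, had 28.2, 86.6 and 42.6 CPM in femur and 30.8, 74.7 and 34.2 CPM in ectopic cells. Nt5e, the CD73 enzyme that makes adenosine, had 36.8, 90.1 and 31.1 CPM in femur and 56.5, 111 and 33.6 CPM in ectopic cells. Lrrk2, a large kinase, was more abundant, at 399, 676 and 346 CPM in femur and 393, 685 and 309 CPM in ectopic cells. The calcium sensor Stim2 (297 CPM in femur and 286 in ectopic intermediate neutrophils), Sntb1 (138 and 168), Ifit1bl2 (47.8 and 50.1), Pnpla1 (34.8 and 26.1), Crtac1 (29.1 and 28.4), Dmwd (27.8 and 29.998), Mcam (13.4 and 14.3) and Dmpk (9.53 and 11.2) followed the same shape at lower or middle levels. Stfa2 (23.9 and 14.7 CPM) and Cstdc5 (29.1 and 24.6 CPM) belong to a family of near-identical stefin genes, so reads may be split between copies, and 84.4% and 57.0% of their ectopic UMIs lay in 5 cells. Car1 and Ctsg entered this group through a few cells, with 97.4% and 72.9% of their femur UMIs in 5 cells. The count was 22 after thinning each cell to 2000 UMIs and 8 among cells of 5000 to 12000 UMIs, a range chosen after the data were seen, and the gates differ in depth, with medians of 13388.5, 7903 and 5538 UMIs in femur.

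The intermediate neutrophils were themselves ordered from the immature to the mature side. Cells with at least 10 UMIs of Ltf and no Il1b made up 23.1% of them in femur and 21.0% in ectopic marrow, cells with fewer than 10 and no Il1b 46.1% and 45.0%, and cells with fewer than 10 and 1 to 4 UMIs of Il1b 28.0% and 29.6%. The rest, 35 femur and 28 ectopic cells, had both. Along these 3 groups Camp stood at 6162, 1360 and 663 CPM in femur and 7625, 1564 and 910 CPM in ectopic cells. Mmp8 was highest at the start, with 4157, 3280 and 2720 CPM in femur and 4631, 3370 and 2940 CPM in ectopic cells. Mmp25 likewise went from 402 to 320.5 and 248.99 CPM in femur and from 456 to 294 and 229 CPM in ectopic cells. Retnlg did not follow them, at 19991, 26103 and 25047 CPM in femur and 22268, 25370 and 26998 CPM in ectopic cells. Cxcr2 increased from 505 to 656 and 753 CPM in femur and from 542 to 677 and 865 CPM in ectopic cells. Clec7a, the beta-glucan receptor Dectin-1, had the steepest course of the genes plotted, from 22.2 to 131 and 236 CPM in femur and from 36.5 to 217 and 345 CPM in ectopic cells. Ltf and Il1b are markers of maturation and formed the groups, so this order is described and not tested.

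**Figure D3:**
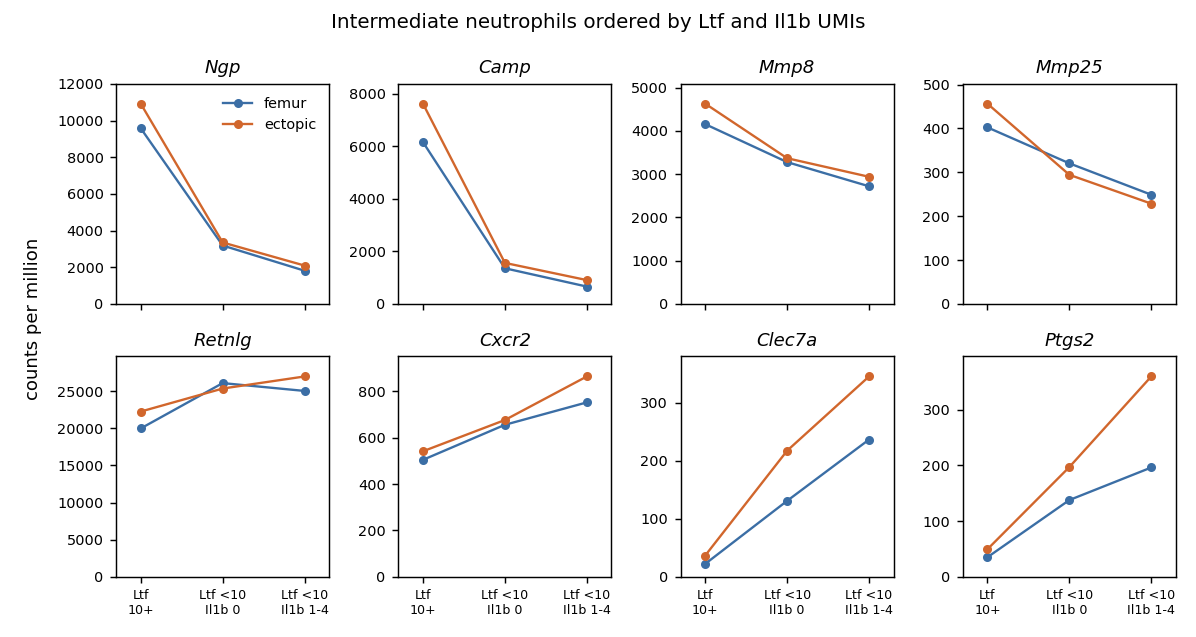
Level of 8 genes (y axis, CPM, from 0) in intermediate neutrophils split by Ltf and Il1b UMIs (x axis), in the femur and ectopic libraries; each point is the summed UMIs of 1 group of cells. Ngp, Camp, Mmp8 and Mmp25 descend, Cxcr2, Clec7a and Ptgs2 climb, and the ectopic points of Clec7a and Ptgs2 lie above the femur points in each group.

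Between the tissues, the ratio of ectopic over femur CPM was 1.03 for Mmp9 (1.01 to 1.05) and 0.930 for Fpr1 (0.892 to 0.969), markers that the rule did not use. For Retnlg and Mmp8, which chose the cells by the same thresholds in both libraries, it was 1.03 and 1.06 and is given as a description. Genes called higher or lower are those at least 1.5-fold apart, a cut on size that tests nothing, among 9764 genes with at least 50 UMIs over both libraries. Of these, 204 (2.09%) were higher in ectopic cells and 1185 (12.1%) lower, with a median log2 ratio of -0.06. None of 9 gelatinase granule genes (median log2 ratio 0.04), of 9 chemoattractant receptors (0.04), of 7 NADPH oxidase genes (0.03), of 12 transcription factors (0.02) or of 21 cytoskeleton genes (0.10) was in either group. Thinned to the same number of UMIs (4438085 per gate and library) and taken over genes of at least 100 CPM, the median absolute log2 ratio was 0.110 in intermediate neutrophils, 0.0835 in the immature gate, 0.120 in the mature gate and 0.157 in B cells. The tissues differed by more than 1.5-fold in 1.52% of such genes in intermediate neutrophils, 0.635% in the immature gate, 2.65% in the mature gate and 6.51% in B cells.

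The count of lower genes moved with cells that carried RNA of other cell types. A doublet score, which measures how much a cell resembles 2 cells added together, put 120 femur intermediate neutrophils (9.50%, holding 19.5% of the UMIs) and 30 ectopic ones (4.61%, 10.3% of the UMIs) among the highest-scoring cells. Those cells had a median of 14854 UMIs in femur and 17693.5 in ectopic marrow. The number of cells marked was set by library size, at 910 of 10665 femur and 369 of 6794 ectopic cells of all types. The shares of marked intermediate neutrophils therefore do not compare doublet rates between the tissues. The summed level of 5 B cell markers was 582 CPM in all femur intermediate neutrophils and 287 CPM in ectopic ones, and 53.3 and 37.1 CPM without the highest scores. For 4 CAR cell markers it was 131 and 55.1 CPM, and 13.8 and 11.8 CPM without them. For 4 dendritic cell markers it was 28.3 and 2.93 CPM, and 2.54 and 1.64 CPM without them. For 7 basophil and eosinophil markers it was 286 and 9.78 CPM, and 7.85 and 5.45 CPM without them, with the eosinophil gene Epx at 0 in both libraries. For 6 monocyte and macrophage markers it was 178 and 126 CPM, and 70.8 and 108 CPM without them. Markers of T and NK cells, erythroid cells, endothelial cells and megakaryocytes stood at 92.0 CPM or less in either library. Without the highest scores, 377 of 8043 genes (4.69%) were higher and 225 (2.8%) lower, and the median log2 ratio was 0.06. In both settings 128 genes were higher and 175 lower. With all cells thinned to 2000 UMIs each, so that cells weigh the same, 183 genes were higher and 271 lower.

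**Figure D4:**
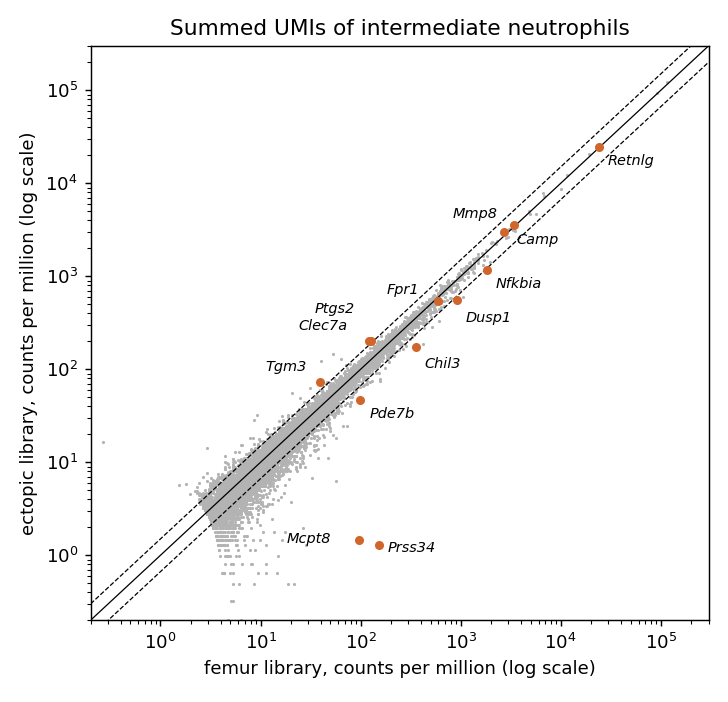
CPM of 9764 genes in intermediate neutrophils of the femur library (x axis) and the ectopic library (y axis), both on log scales, with the line of equality and dashed lines at 1.5-fold. Retnlg, Mmp8, Camp and Fpr1 lie on the line, Nfkbia, Dusp1, Chil3 and Pde7b below it, Clec7a, Ptgs2 and Tgm3 above it, and Mcpt8 and Prss34 far below it.

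Tgm3, Ptgs2 and Clec7a stood higher in ectopic cells. Tgm3, a transglutaminase that cross-links proteins, had 38.9 CPM in femur cells against 73.9 CPM in ectopic cells, a ratio of 1.90 (1.66 to 2.17), and of 1.72 without the highest doublet scores. The ratio was 1.87 in the immature and 1.88 in the mature gate. It was seen in 7.13% and 12.0% of cells thinned to 2000 UMIs (18.2% and 30.9% unthinned). B cells should lack it, and it was seen in 0.0380% and 0.0464% of thinned B cells. Unthinned, at median depths of 6220 and 6575 UMIs, the shares of B cells were 0.0757% and 0.0463%. These B cells were chosen to hold few S100a8 and Retnlg UMIs, which limits the free neutrophil RNA they can show. Ptgs2, the inducible cyclooxygenase of prostaglandin synthesis, stood at 120 and 199 CPM, a ratio of 1.66 (1.54 to 1.80), and of 1.60 without the highest scores. Clec7a stood at 126 and 200 CPM, a ratio of 1.59 (1.47 to 1.72), and of 1.60 without them. It was seen in 20.8% and 28.3% of thinned cells (46.1% and 61.1% unthinned), and in 1.101% and 0.556% of thinned B cells. In the immature gate their ratios were 0.843 and 1.21, and in the mature gate 1.48 and 1.499.

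Lower ratios among the 10 highest belonged to Cass4, a scaffold of focal adhesions, with 46.7 and 72.7 CPM (ratio 1.56), to Dusp6, a phosphatase of the ERK kinases, with 72.1 and 110.4 CPM (1.53), and to Fgl2, a fibrinogen-like protein, with 39.5 and 59.5 CPM (1.51, and 1.49 without the highest scores). Aff2 (54.1 and 79.7 CPM), Stfa1 (78.2 and 115 CPM) and the adaptor Sh3bp2 (35.5 and 52.0 CPM) had ratios of 1.47, 1.47 and 1.46 and so stayed under 1.5-fold. Stfa1 shares reads with near-identical stefin genes. It was seen in 3.96% of thinned femur and 3.38% of thinned ectopic cells (5.54% and 5.07% unthinned), so not in a larger share of ectopic cells. Il1rapl1 had the highest ratio among genes of at least 50 CPM in 1 library taken by the naming rule, 2.02 (31.5 and 63.6 CPM), with ratios of 2.09, 2.28 and 2.19 in the immature gate, the mature gate and B cells. Its share of thinned cells was 6.81% and 13.2% in intermediate neutrophils and 5.73% and 13.9% in B cells. Of 19 pattern and cytokine receptors 2 were higher and 0 lower, where 2.09% of all genes were higher and 12.1% lower. Beside Clec7a this was Cd14, the lipopolysaccharide coreceptor, at 11.6 and 22.99 CPM (ratio 1.99, and 2.25 without the highest scores). Cd14 rested on 130 femur and 141 ectopic UMIs, and its ratio was 1.59 in the immature and 0.979 in the mature gate. The list median was a log2 ratio of 0.08. The nuclear receptor Nr4a1 stood at 15.4 and 27.9 CPM (1.81 and 2.27).

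Dusp1 and Nfkbia stood lower in ectopic cells. Dusp1, a phosphatase that switches off MAP kinases, had 911 CPM in femur cells against 555 CPM in ectopic cells, a ratio of 0.609 (0.586 to 0.633), and of 0.596 without the highest doublet scores. It was seen in 72.4% and 56.8% of thinned cells (94.9% and 87.1% unthinned), and in 14.1% and 8.21% of thinned B cells. Nfkbia stood at 1833 and 1179 CPM, a ratio of 0.643 (0.626 to 0.661), and of 0.620 without the highest scores. In the immature and mature gates the ratio was 0.553 and 0.583 for Dusp1, and 0.693 and 0.584 for Nfkbia. In B cells the ratio was 0.544 for Dusp1 and 0.769 for Nfkbia, so lower values were not confined to neutrophils. Tnfaip3, a brake on NF-kB, had a ratio of 0.653 without the highest scores. Of 17 NF-kB and inflammatory genes 2 were higher (Ptgs2, and Ccl4, at a ratio of 3.50 and of 1.67 without the highest scores, with 84.4% of its ectopic UMIs in 5 cells) and 2 lower (Nfkbia, and Icam1 at 6.77 and 4.08 CPM), with a median log2 ratio of -0.09. Of 17 immediate early genes 1 was higher (Nr4a1) and 3 lower (Dusp1, Atf3 and Fosb), with a median of -0.06. Without the highest doublet scores 2 of 16 were higher and 1 lower. Fosb, with 61.0% of its femur UMIs in 5 cells, turned to higher on 42 femur and 52 ectopic UMIs. Atf3 went from a ratio of 0.561 to 0.996. Beside both lists, 2.09% of all genes were higher and 12.1% lower with all cells kept. Without the highest scores 4.69% of all genes were higher and 2.8% lower.

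Pde7b, which breaks down cyclic AMP, stood at 99.5 and 46.5 CPM (ratio 0.467, 0.409 to 0.532), and 0.434 without the highest scores. It was seen in 13.9% and 7.83% of thinned cells (32.8% and 19.97% unthinned), and in 2.20% and 1.16% of thinned B cells. Bcl2l11, the death-promoting protein BIM, stood at 78.4 and 42.4 CPM (0.541), and its ratio in the mature gate was 0.543. Crispld2, a secreted protein, stood at 265 and 163 CPM (0.617), Cyth1, which activates ARF proteins, at 194 and 120.3 CPM (0.620), and Zbtb11, a zinc finger protein, at 116 and 69.8 CPM (ratio 0.59999). Cd69, an early activation marker, stood at 53.4 and 32.4 CPM (0.607) and had a ratio of 0.371 without the highest scores. The mast cell and basophil proteases Prss34 (153 and 1.304 CPM) and Mcpt8 (95.4 and 1.47 CPM) had the lowest ratios of all, 0.00854 and 0.0154, with 99.6% and 97.8% of their femur UMIs in 5 cells. Under the same rule without the highest scores Cd80, a costimulatory ligand, took a place among the 10 lowest with 94.6 and 55.3 CPM (0.584), and Chka, a choline kinase, with 85.1 and 52.4 CPM (0.616). Among the 10 highest, Kat6b (37.5 and 54.4 CPM), Kpna1 (55.4 and 81.4 CPM) and Mpp7 (42.0 and 60.7 CPM) did so.

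**Figure D5:**
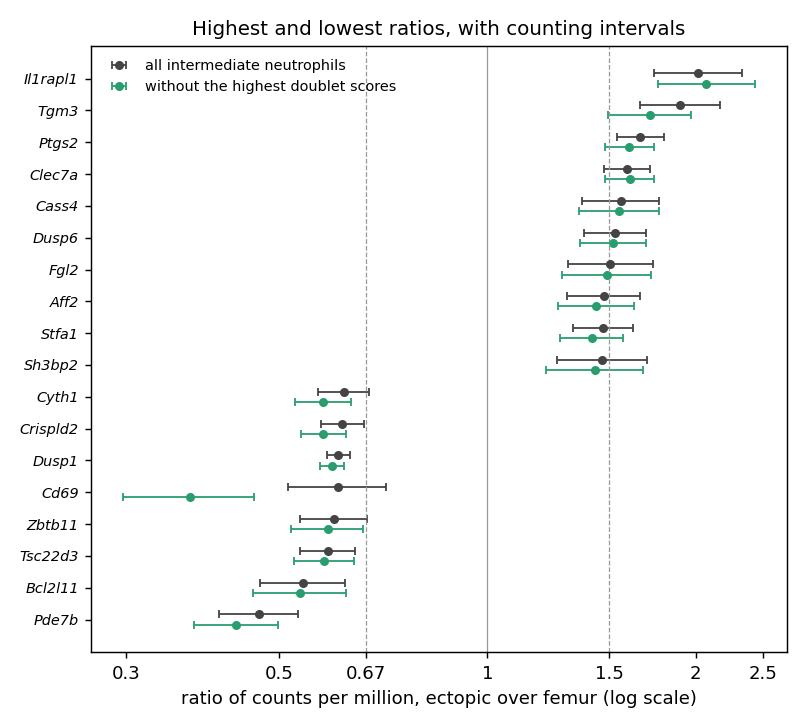
Ratio of ectopic over femur CPM (x axis, log scale) for 18 of the 20 genes with the highest and lowest ratios in intermediate neutrophils, with exact 95% counting intervals, for all cells and without the highest doublet scores; Prss34 and Mcpt8 are left out. Each gene lies on the same side of 1 in both, and Cd69 moves most, from 0.607 to 0.371.

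Single glucocorticoid-responsive genes leaned lower in ectopic cells, while the level summed over the list was close between the libraries. Added up, the 13 listed genes made 1494 CPM of the femur intermediate neutrophils, against 1414 CPM of the ectopic ones. Of 13 measured, 8 were lower and 0 higher, with a median log2 ratio of -0.77, where 12.1% of all genes were lower and 2.09% higher. Without the highest doublet scores 4 of 12 were lower and 1 higher, with a median of -0.20, where 2.8% of all genes were lower and 4.69% higher. Tsc22d3, the anti-inflammatory protein GILZ, stood at 174 and 102 CPM (0.588, and 0.581 without those cells). Per1, which glucocorticoids and the clock both induce, stood at 45.2 and 22.8 CPM (0.505 and 0.462), and its ratio was 0.551 in the immature gate and 0.583 in the mature gate. Ddit4 and Klf9 were lower in both settings too, at 0.451 and 0.621 without the highest scores. Per2 of the clock went the other way at 8.55 and 15.8 CPM (1.85 and 1.94), and of the 8 clock genes measured 1 was higher and 1 lower. Mt2 had 100% of its UMIs in 5 cells in each library. Fkbp5, Sgk1 and Cxcr4 are on the list as well and were within 1.5-fold.

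Cell cycle and heat shock genes stood lower with the highest doublet scores included and not without them. Of 20 cell cycle genes 13 were lower, against 12.1% of all genes, with a median log2 ratio of -0.71. Of the 17 still measured without those cells 0 were lower, against 2.8% of all genes, and 1 was higher, with a median of 0.26. Of 8 heat shock genes 4 were lower (median -0.58), and without them 0 of 7 (median -0.09). The azurophil genes Mpo (156 and 74.996 CPM), Elane (157 and 77.9 CPM) and Ctsg (77.6 and 50.9 CPM) were lower as well, with 74.3%, 77.4% and 72.9% of their femur UMIs in 5 cells, and 0 of 8 azurophil genes were lower without the highest scores (median -0.12 with and 0.03 without them). In thinned cells Mpo was seen in 3.65% of femur intermediate neutrophils and in 5.88% of femur B cells. Fosb and S100a4 were on opposite sides of 1 in these settings, with ratios of 0.528 and 0.632 in all cells and of 2.03 and 2.76 without the highest scores. With all cells kept, 61.0% of the femur Fosb UMIs lay in 5 cells, as did 53.1% of the femur and 61.5% of the ectopic S100a4 UMIs. Without the highest scores Fosb rested on 42 femur and 52 ectopic UMIs, and S100a4 on 28 and 47.

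Other granule and defence genes were near equal with few exceptions. Among 12 specific granule genes Camp had a ratio of 1.12, Ngp 1.04, Lcn2 0.825 and Lyz2, a lysozyme, 1.17. Chil3, a chitinase-like lectin, was lower at 354 and 175 CPM (0.495, and 0.515 without the highest scores), and its ratio was 0.897 in the immature and 0.351 in the mature gate. A near-identical copy of Chil3 exists in the genome, so reads could be split. Fcnb was lower too (14.5 and 5.54 CPM, ratio 0.382, and 0.883 without the highest scores), with 64.4% of its femur UMIs in 5 cells, and the median log2 ratio of the list was -0.02. The antiprotease-like Wfdc17 stood at 43.5 and 18.9 CPM (0.434 and 0.488), 1 of 2 lower genes among 10 antiproteases (median 0.02). Of 5 leukotriene and prostaglandin synthesis genes Ptgs2 was higher (median -0.06). Of 24 interferon-stimulated genes 3 were lower (Ifit1, Bst2 and Ifitm1) and 0 higher, a share near the 12.1% of all genes called lower, with a median log2 ratio of 0.00. Without the highest scores 2 of 22 were lower, and Bst2 went from a ratio of 0.464 to 0.981. Of 12 class I antigen presentation genes H2-Q7, which has near-identical relatives, was lower (27.5 and 16.1 CPM, ratio 0.587), with a list median of 0.04. With all cells kept, 50.5% of the ectopic H2-Q7 UMIs lay in 5 cells. Without the highest scores the H2-Q7 ratio was 0.338, on 102 femur and 21 ectopic UMIs. Of 19 glycolysis and hypoxia genes Egln3, an oxygen-sensing hydroxylase, was higher at 18.1 and 27.4 CPM (1.52), with a list median of 0.02. Adhesion genes (14 measured, 2 lower, 1 without the highest scores) had a median of 0.01 with all cells kept. Of 10 survival genes 1 was lower (median 0.02), and without the highest scores 1 was higher and 1 lower (median -0.07). Of 8 S100 genes 1 was lower (median -0.02). Without the highest scores 2 of 7 S100 genes were higher and 0 lower (median 0.04), where 4.69% of all genes were higher and 2.8% lower. They were S100a4 (ratio 2.76, 28 femur and 47 ectopic UMIs) and S100a10 (1.96, 93 and 111 UMIs). S100a9, the most abundant of all, stood at 115692 and 123214 CPM. Of 82 ribosomal protein genes 3 were lower (median -0.19), among them Rps29 at 1049 and 594 CPM and Rps28 at 516 and 282 CPM, and without the highest scores 0 were lower and 3 higher (median 0.16). The cold-inducible gene Rbm3 stood at 82.7 and 103 CPM (1.24, and 1.63 without them). Whether the cells with the highest doublet scores account for the genes lost without them was not tested.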

How the data were processed

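Single-cell RNA counts of 1 femur and 1 ectopic mouse library were used. The deposited values are raw UMI counts per gene and barcode, written by Cell Ranger 7.0.1, per the file headers. The build was GRCm39, per the submitters' processing notes, and the annotation is not given in the sources used here. Barcodes under 500 UMIs or 300 genes, or above 10% mitochondrial UMIs, were removed. The intermediate neutrophils, the gates and all gene lists were chosen with earlier results of these data known.

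UMIs were summed over cells and scaled to CPM. Ratios carry exact conditional binomial intervals of 2 Poisson counts and shares exact Clopper-Pearson intervals, which cover counting error only. B cells (Cd79a at least 3, S100a8 under 50, Retnlg under 5 UMIs) served as the reference for free RNA. The limits on S100a8 and Retnlg capped the free neutrophil RNA that this reference could show. Doublets stayed in, as the rule has no doublet step; a Scrublet-type score (30 components of 2000 variable genes) ranked cells, and the top 0.8% per 1000 cells of each library were left out as an alternative. The procedure was tested on simulated data.

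Named genes were the 4 markers, the measured genes of the granule and chemoattractant receptor lists, up to 2 highest and 2 lowest ratios of each other list, the 20 genes most above both gates, and the 10 highest and 10 lowest ratios among genes of at least 50 CPM in 1 library and 0.5 times the level of all other cells. Unnamed models, globin, ribosomal, mitochondrial, immunoglobulin and Y-linked genes, and Xist, were left out of the last 3. Other genes named as past 1.5-fold were chosen after their values were seen. Alternatives were other cell filters, gate thresholds, scalings (TMM of edgeR 4.0.16, median of ratios, per-cell means, thinning to 2000 UMIs), minimum counts and folds; cells of 5000 to 12000 UMIs and the naming rule without the highest doublet scores were added after the data were seen. R 4.3.3 and Python 3.11.15 were used, with scipy 1.17.1, numpy 2.4.6, scikit-learn 1.9.0, pandas 2.3.3 and matplotlib 3.10.9.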

Additional observations from a re-analysis of the deposited data

How the results depend on the processing

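The share of intermediate neutrophils among all cells stayed lower in the ectopic library under each of the 11 alternatives tried, with log2 ratios of -0.34 to -0.24, while within the 3 gates the log2 ratio ran from -0.09 to 0.04. The count of genes higher in ectopic cells was 377 without the highest doublet scores, 449 when genes counted from 20 UMIs, 46 from 200 UMIs and 35 at a fold of 2. The count of lower genes was 225, 2070, 307 and 411 in the same settings, 771 by means of per-cell CPM, 271 after thinning to 2000 UMIs and 348 among cells of 5000 to 12000 UMIs. Genes above both neighbouring gates numbered 22 after thinning, 10 at a fold of 2 and 8 among cells of 5000 to 12000 UMIs. TMM scaling gave 275 higher and 1000 lower genes and median-of-ratios scaling 301 and 944. Among named genes past 1.5-fold in all cells, the log2 ratio changed sign without the highest doublet scores for Ctsg (0.023), Fosb (1.02), S100a4 (1.46), Ube2c (0.32), Mki67 (0.38) and Top2a (0.14). With thresholds per 10000 UMIs it did so for Cdc20 (0.32) and Ube2c (0.79), with Ltf under 20 for Ccl4 (-0.016), and among cells of 5000 to 12000 UMIs for Fosb (1.12) and S100a4 (0.88). The cause was not tested. Of the other values of single genes, 2070 moved by less than their counting interval and 331 by more. No paired analysis was possible because each tissue has 1 library. Depth limits genes near 50 UMIs, whose counting intervals span 1.5-fold.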
